A study of Mus musculus with 41 samples.

Results

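D17H6S56E-5, 1300002K09Rik and Xtrp3s1 are 3 little-studied genes that were read by 5 probes on a mouse mRNA array of 27962 gene names and 41174 probes. They were selected on the measured lung values described here, as genes higher in lungs of mice that had inhaled nanoTiO2 than in lungs of air controls. Their lung differences are therefore given as a description, with no test. Every probe that the array names for these genes was kept, and all 3 genes were followed in lung and liver.

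The mice were female C57BL/6 animals, of the substrain C57BL/6BomTac by the study's methods, that had been time-mated but had not conceived. Their age, 11 to 13 weeks, is taken from the labels of the lung miRNA samples, on the reading that the same set of mice was used. The mRNA labels give no age in weeks, and mouse numbers do not link the mRNA and miRNA samples. Exposed mice inhaled 40 mg nanoTiO2/m3 for 1 h per day on 11 days and were killed 5 days after the last exposure, and controls inhaled filtered air. Lung mRNA came from 7 exposed and 6 control mice and liver mRNA from 7 exposed and 8 control mice, with 1 array per mouse and tissue. The lung samples were labelled as part of a lung, so each value is a mixture of all cell types in that piece. Each sample, labelled with Cy5, was hybridised against a universal mouse reference RNA, pooled from mouse cell lines and labelled with Cy3. No array had the dyes swapped, and exposed mice were at positions 1 and 2 and controls at positions 3 and 4 of a slide, and effects of place on the slide and of exposure cannot be told apart. Values are log2 ratios of sample over reference, so a value of 1 means 2-fold more signal in the sample.

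The 3 genes encode proteins of unlike kinds. D17H6S56E-5, also called G7e, lies in the class III region of the mouse major histocompatibility complex (MHC) and resembles a viral envelope gene. The current name of 1300002K09Rik is Stra6l, also known as Rbpr2, a relative of Stra6. Both Stra6 and Stra6l are membrane receptors that take up vitamin A (retinol) from the plasma carrier Rbp4, Stra6l mainly in liver and intestine. Xtrp3s1 is now Slc6a20a, a sodium-coupled transporter of proline and other imino acids that is best known from kidney, gut and brain. It sits beside a close copy, Slc6a20b.

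In the reference assembly GRCm38.p6, D17H6S56E-5 spans chr17:34996678-35000774, 1300002K09Rik spans chr4:45824293-45887010 and Xtrp3s1 spans chr9:123636907-123678832. The probes are 60 bases long and the array design places them on the older build mm7. For D17H6S56E-5, probe A_52_P416756 lies at chr17:33094798-33094857 and probe A_51_P134468 at chr17:33094273-33094332, both on the minus strand and 525 bases apart. For 1300002K09Rik, probe A_52_P67678 lies at chr4:45899965-45900024 and probe A_51_P170725 at chr4:45900754-45900813, both on the plus strand and 789 bases apart. The only Xtrp3s1 probe, A_51_P412024, lies at chr9:123352976-123353035 on the minus strand. The last 30 bases of each probe are shown because the probes of 1 gene read different stretches of its transcript. Capitals mark AATAAA, the usual signal for cleavage and polyadenylation.
A_52_P416756: ccccctgatggattcatcaaggaccaggtc
A_51_P134468: tggaaatctaactggctttaaaaggaaaag
A_52_P67678: cttactcaagagacacaagtgtcaggctgg
A_51_P170725: ccaaaaccatgaactcaAATAAAtttttgc
A_51_P412024: aggccagtattgaagaccgttgttttcttg
Of these 30-base ends, that of A_51_P170725 alone held AATAAA.

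Between 61.3% and 67.5% of spots on a lung array, and between 55.1% and 70.5% on a liver array, were well above background in Cy5. The scanner software marked no spot of the 5 probes as an outlier on any lung or liver array. It marked the local background of 4 liver spots of A_51_P170725, 2 of A_51_P412024 and 1 of A_52_P67678, and these spots were kept.

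With the main processing, Xtrp3s1 showed the largest lung difference of the 3 genes. Its log2 ratio ran from 0.81 to 1.32 with a median of 0.95 in the 6 control lungs, and from 1.89 to 2.31 with a median of 2.06 in the 7 exposed lungs. The lowest exposed lung was above the highest control lung. Such a gap is a description, since the lung values chose the genes, and its share over all probes was not counted. The control mean was 1.03 ± 0.21 (SD, n = 6) and the exposed mean 2.09 ± 0.14 (SD, n = 7), a difference of 1.06 ± 0.09 (SE), or 2.09-fold. The probe ranked 19 among the lung differences of all probes, counted from the highest. The raw Cy5 median of its spot was 111 to 213 in controls and 206 to 445.5 in exposed lungs, over a local background of 56 to 64. The spot was well above background in Cy5 on 13 of 13 lung arrays but in the reference channel on only 1. Its ratio thus compares lung signal with a reference near background, and its size depends on how background is treated.

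The probes of D17H6S56E-5 gave similar lung differences. With probe A_51_P134468 the control lungs ran from -1.52 to -1.27 with a median of -1.41, and the exposed lungs from -0.83 to -0.43 with a median of -0.75. Probe A_52_P416756 ran from -2.10 to -1.68 with a median of -1.75 in controls and from -1.43 to -0.98 with a median of -1.19 in exposed lungs. With both probes, every exposed lung was above every control lung, again a gap whose share over all probes was not counted. All 13 lungs held less signal than the reference. The differences were 0.69 ± 0.06 (SE) and 0.62 ± 0.08 (SE), which are 1.61-fold and 1.54-fold. The reference channel of A_51_P134468 was itself 0.14 log2 higher on the exposed arrays, while Cy5 was 0.83 higher.

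For 1300002K09Rik the probes did not give the same picture in lung. Probe A_51_P170725 ran from -1.05 to -0.60 with a median of -0.77 in control lungs and from -0.34 to 0.21 with a median of -0.19 in exposed lungs. These groups did not overlap, again with no count over all probes, and their means differed by 0.65 ± 0.09 (SE), or 1.57-fold. The signal was small, with Cy5 medians of 85 to 141 in controls and 126.5 to 208 in exposed lungs over a local background of 58 to 65, but the spot was well above background on 13 of 13 arrays. Probe A_52_P67678 was not well above background on any of the 13 lung arrays, with Cy5 medians of 66 to 73, and gives no lung difference. The lung difference of this gene thus rests on 1 of its 2 probes.

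**Figure D1:**
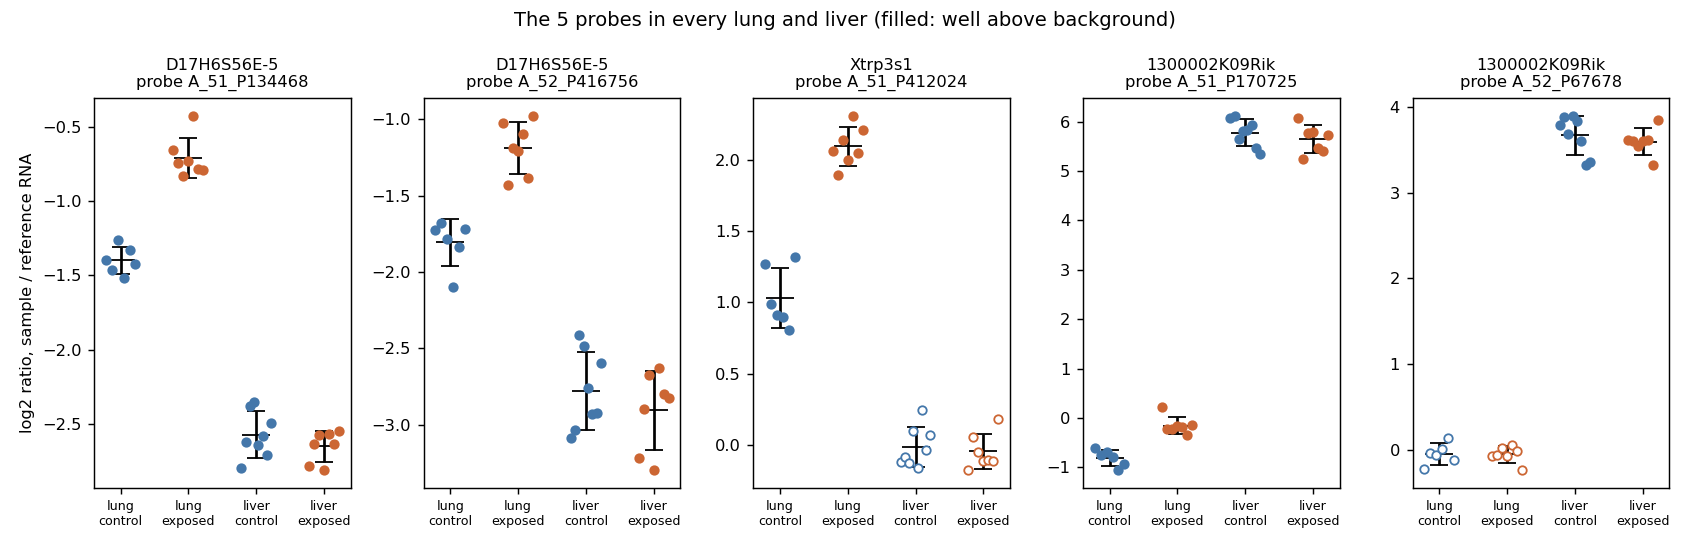
Log2 ratio of sample over reference RNA for the 5 probes in every mouse, by tissue and exposure, each panel with its own axis. Points are mice, filled where the spot was well above background in Cy5, and bars give the mean ± SD. The lung values chose the genes, so the gap between the lung groups of 4 probes is a description. How many of all probes show such a gap was not counted. In liver the groups overlap for each probe, and Xtrp3s1 was not well above background there.

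The lung differences are also given within each slide that carried both groups. These are the values that chose the genes, so their agreement is a description and no replication. On 1 of these slides there was only 1 exposed lung. The 3 such slides gave 0.99 to 1.01 for Xtrp3s1, 0.59 to 0.70 for A_51_P134468, 0.51 to 0.70 for A_52_P416756 and 0.51 to 0.80 for A_51_P170725. The 4th lung slide carried 2 exposed mice and no control. Across all lung probes, 91 of 41172, or 0.221%, passed an adjusted p of 0.05 in limma. That share is given for scale only, since this contrast chose the genes.

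Processing changed the size of the difference for the 2 dimmest of these probes. Xtrp3s1 differed by 0.49 ± 0.38 (SE) when marked spots stayed in the background model, and by 0.58 ± 0.31 (SE) with the processed signals of the scanner software. In both of these settings its difference was the smallest of the detected probes, not the largest. A_51_P170725 differed by 1.36 ± 0.18 (SE) with the scanner software's signals. The D17H6S56E-5 probes, which are brighter, stayed between 0.61 and 0.76 under all 7 alternatives other than leaving out single mice.

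**Figure D2:**
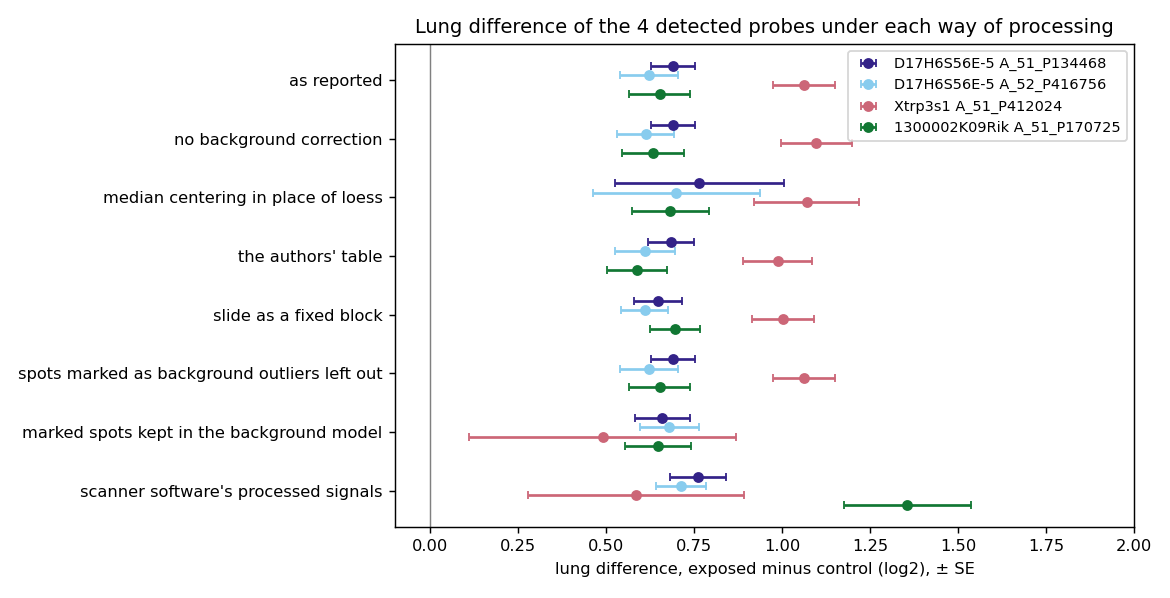
Lung difference, exposed minus control, on the log2 scale for the 4 detected probes as reported and under 7 other ways of processing, with bars of ± 1 SE. All values lie above 0, the direction by which the genes were chosen, and Xtrp3s1 and 1300002K09Rik move most, to 0.49 and 1.36.

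The liver of the exposed mice offered a comparison that did not enter the choice of the genes. In limma, 0 of the 5 probes passed an adjusted p of 0.05 in liver, as did 0 of all 41174 probes (0%), with 1002 of them at an unadjusted p under 0.05. With A_51_P134468, D17H6S56E-5 averaged -2.57 ± 0.16 (SD) over the 8 control livers and -2.65 ± 0.10 (SD) over the 7 exposed livers. The difference was -0.08, with a 95% interval from -0.22 to 0.06 (limma adjusted p = 1.00, exact permutation p = 0.276, two-sided). Its other probe, A_52_P416756, differed by -0.13, with an interval from -0.38 to 0.13 (limma adjusted p = 1.00, exact permutation p = 0.355, two-sided).

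1300002K09Rik gave a strong signal in every liver. Probe A_51_P170725 ran from 5.34 to 6.12 with a median of 5.82 in control livers and from 5.24 to 6.07 with a median of 5.72 in exposed livers. The groups overlapped almost entirely, and the difference was -0.14, with an interval from -0.41 to 0.14 (limma adjusted p = 1.00, exact permutation p = 0.353, two-sided). Probe A_52_P67678 was well above background in all 15 livers and ran from 3.32 to 3.90 in controls and from 3.33 to 3.85 in exposed mice. It differed by -0.07, with an interval from -0.27 to 0.12 (limma adjusted p = 1.00, exact permutation p = 0.461, two-sided). With marked spots kept in the background model, these differences of 1300002K09Rik turned to 0.34 and 0.77, and neither passed. That lung and liver respond unequally was not tested, since the lung values chose the genes.

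Xtrp3s1 was not well above background on any of the 15 liver arrays, where its Cy5 medians were 84.5 to 100.5 over local backgrounds of 77.5 to 88. No liver fold is given for it.

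Lung and liver of the control mice differed for all 5 probes, and the genes went opposite ways. In that comparison 58.2% of all 41172 probes passed, so that a call there is common. The 6 control lungs also served in the contrast that chose the genes, and the tissues were hybridised as separate series read with different versions of the scanner software. Tissue and series cannot be told apart.

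D17H6S56E-5 was higher in control lung than in control liver with both probes. A_51_P134468 was 1.17 ± 0.07 (SE) higher (2.26-fold, limma adjusted p = 1.1e-10) and A_52_P416756 0.97 ± 0.11 (SE) higher (1.96-fold, limma adjusted p = 4.2e-07). With marked spots kept in the background model the latter was 0.52 and no longer passed (limma adjusted p = 0.131). All 6 control lungs were above all 8 control livers with each probe, and the exact permutation p of 0.000333 is the smallest that 3003 splits allow. The order of the 4 groups was exposed lung, control lung, then the livers, whose groups overlapped.

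1300002K09Rik went the other way by far. Probe A_51_P170725 averaged -0.81 ± 0.17 (SD) over the 6 control lungs and 5.78 ± 0.28 (SD) over the 8 control livers, a difference of -6.58 ± 0.12 (SE), or 95.8-fold in favour of liver (limma adjusted p = 8.2e-18). The difference ran from -7.87 to -6.06 under other ways of processing, so that the fold depends on them. The highest exposed lung, at 0.21, remained far below the lowest liver, at 5.24. For A_52_P67678, which was not well above background in lung, the log2 ratio was 3.67 ± 0.23 (SD, n = 8) in control livers and -0.05 ± 0.12 (SD, n = 6) in control lungs, a difference of -3.72 ± 0.09 (SE, limma adjusted p = 1.2e-15), or 13.2-fold. Other ways of processing gave -6.59 to -2.84. In Cy5 alone, which was not tested, control liver was at least 16.3-fold brighter than control lung. The liver mean was 10.03 ± 0.35 (SD, n = 8) in log2 Cy5 against a lung bound of 6.00 and a measured lung mean of 5.98.

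Xtrp3s1 was detected in lung alone. It was well above background in Cy5 in 13 of 13 lungs and 0 of 15 livers. The log2 ratios of control lung and control liver differed by 1.04 ± 0.09 (SE, limma adjusted p = 1.1e-08), or 2.06-fold, and by 0.89 to 4.39 under other ways of processing. In Cy5 alone, which was not tested, control lung was at least 2.28-fold brighter, with a mean of 7.10 ± 0.21 (SD, n = 6) in log2 Cy5 against a liver bound of 5.92 and a measured liver mean of 5.91. In exposed mice the corresponding bound was at least 4.83-fold, with no test. Such bounds are means of the Cy5 channel after Aquantile scaling, in which the dim group takes the lowest signal that is well above background on each array, and they are open to dye bias. They hold for this background treatment only.

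Because 1300002K09Rik is so much brighter in liver, hepatocyte genes in the lung samples are given beside it. Of 10 hepatocyte markers listed, 8 were measured, 8 of 8 had a positive lung difference (51.0% of all genes) with a median of 0.84, and 0 passed an adjusted p of 0.05 in limma (0.221% of all probes), with 4 at an unadjusted p under 0.05. Alb1, encoding serum albumin, averaged 2.79 in exposed and 1.92 in control lungs, while Ttr, encoding transthyretin, was well above background in 1 of 13 lungs. The mean log2 ratio of the list ran from 0.36 to 1.22 over control lungs and from 0.68 to 2.85 over exposed lungs. Over livers it ran from 5.30 to 5.65 in controls and from 5.17 to 5.43 in exposed mice. In liver 0 of the 8 markers had a positive difference, with a median of -0.21 against -0.0023 over all probes. There 0 passed, and 6 were at an unadjusted p under 0.05 in limma, as were 1002 of all 41174 probes.

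In exposed mouse 1 the hepatocyte list and 1300002K09Rik were both the highest of all lungs, at 2.85 and 0.21. Mice 13 and 19 had lists of 2.06 and 2.16 with 1300002K09Rik at -0.23 and -0.17, and mice 12 and 20 had lists of 0.68 and 0.83 with 1300002K09Rik at -0.23 and -0.19. Control mouse 26, with a list of 1.22, had 1300002K09Rik at -0.75. Without mouse 1 the lung difference of A_51_P170725 was 0.59. The part of hepatocyte RNA in the lung values of 1300002K09Rik was not tested.

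**Figure D3:**
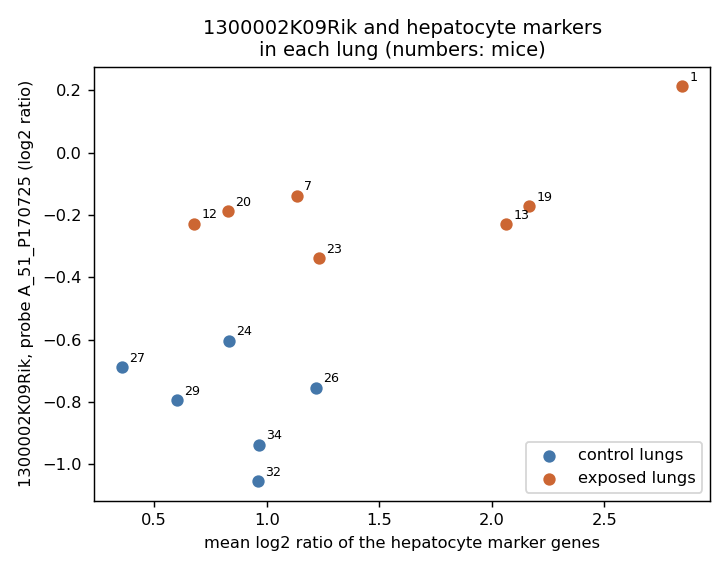
Log2 ratio of 1300002K09Rik (probe A_51_P170725) against the mean log2 ratio of 8 hepatocyte marker genes in each of the 13 lungs, numbered by mouse. Mouse 1 is the highest on both axes, at 2.85 and 0.21.

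Among all 13 cell type lists, genes passed in lung only in the macrophage list, with 3 of its 9 measured markers and a median difference of 0.22. Marco (0.57 ± 0.09 SE, limma adjusted p = 0.0093) and Msr1 (0.52 ± 0.09 SE, limma adjusted p = 0.019), both scavenger receptors that bind particles, were higher in exposed lungs. Siglecf, a surface lectin of resident alveolar macrophages and eosinophils, was lower (-0.70 ± 0.11 SE, limma adjusted p = 0.010). The macrophage list ran from 1.67 to 1.96 in control and from 1.82 to 2.18 in exposed lungs, and the neutrophil list, with a median difference of -0.26, from 1.86 to 2.82 and from 1.45 to 2.49. All 5 heart muscle markers had positive differences, with a median of 0.29, and their list ran from 1.44 to 3.61 in control and from 2.43 to 3.79 in exposed lungs. The part of these cells in the 3 genes was not tested, and in whole tissue a change in cell number and a change in RNA per cell cannot be told apart.

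Genes with roles near those of the 3 members were counted next. None of the 36 measured genes of retinoid handling passed in lung, where 0.221% of all probes did. Their median difference was 0.03, against 0.0012 over all probes, and 3 were at an unadjusted p under 0.05, as were 2914 of all 41172 probes. Stra6, the other receptor for Rbp4, differed by -0.04 ± 0.06 (SE), and Rbp4 itself by 0.26 ± 0.21 (SE). The largest values were those of Cyp26b1, which degrades retinoic acid (-0.74 ± 0.70 SE), Rdh7, a retinol dehydrogenase (0.52 ± 0.24 SE), and Aldh1a3, which makes retinoic acid (0.29 ± 0.17 SE). None of these 3 passed, with limma adjusted p from 0.699 to 0.847. Rdh7 was well above background in only 5 of 7 exposed and 2 of 6 control lungs. It was bright in liver, at a mean of 4.50 in controls against 0.16 in control lungs.

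None of 21 measured transporters of the Slc6 family and their partners passed in lung, with a median difference of 0.01. The copy next to Xtrp3s1, which the array names Slc6a20 and which is now Slc6a20b, was not well above background in any lung. Slc6a13, a GABA and taurine transporter (0.22 ± 0.14 SE), Slc6a9, a glycine transporter (0.16 ± 0.08 SE), and Slc6a15, a transporter of branched-chain amino acids and proline (-0.11 ± 0.06 SE), had the largest differences. Tmem27, which escorts related transporters to the membrane in kidney, was not well above background on any lung or liver array.

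None of 17 measured genes of proline transport and metabolism passed either, with a median of 0.02. Slc36a1, a proton-coupled carrier of proline and other small amino acids, had the largest difference (-0.27 ± 0.26 SE), followed by Prodh2 (0.15 ± 0.08 SE), encoding hydroxyproline dehydrogenase, and Prodh, encoding proline dehydrogenase (0.13 ± 0.07 SE).

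In the MHC class III region, 0 of 45 measured genes passed in lung, 32 had a positive difference, the median was 0.05 and 7 were at an unadjusted p under 0.05. Over all genes 51.0% had a positive difference, and 2914 of all 41172 probes were at an unadjusted p under 0.05. Apom, an apolipoprotein (0.38 ± 0.16 SE), C4b, a complement component (0.24 ± 0.11 SE), and Ltb, encoding lymphotoxin beta (0.24 ± 0.10 SE), were highest. Apom was also bright in liver, at a mean of 4.73 in controls against -0.16 in control lungs. Cfb, encoding complement factor B, was the only gene of the 4 lists that passed when slide entered the fit (0.36 ± 0.06 SE, limma adjusted p = 0.021, against 0.22 and 0.725 without slide). In liver, no gene of the 4 lists passed. At an unadjusted p under 0.05 in liver there were 5 of 36 genes of retinoid handling and 0 of 21 of the Slc6 list. There were 1 of 17 of the proline list and 3 of 45 of the class III list, beside 1002 of all 41174 probes.

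**Figure D4:**
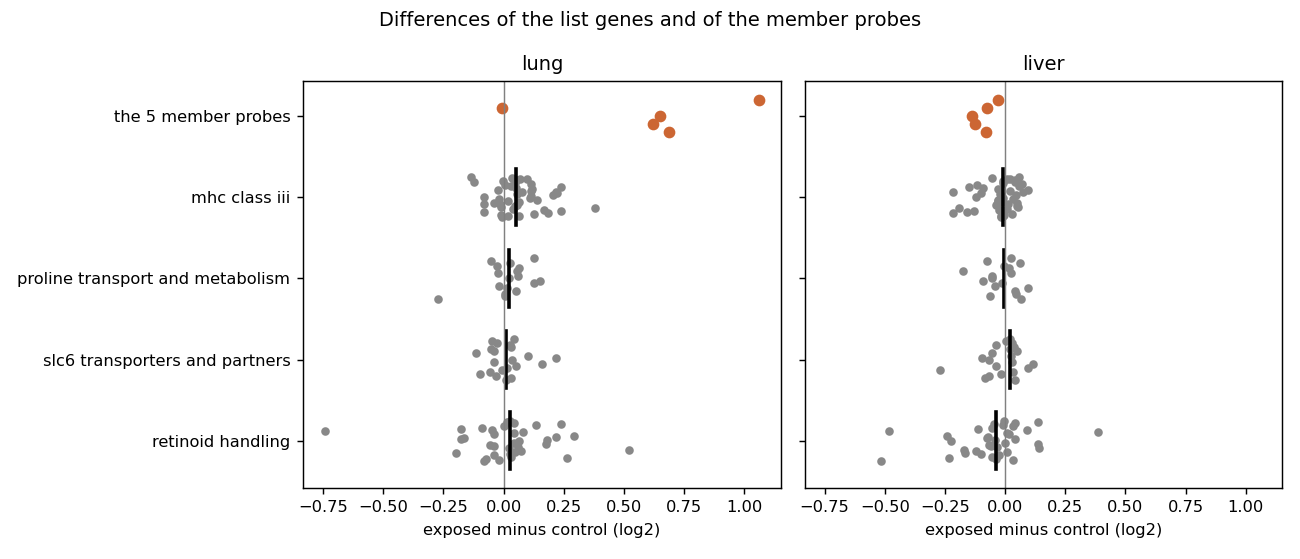
Differences between exposed and control mice on the log2 scale for each measured gene of 4 lists (grey, bars at the medians) and for the 5 member probes (orange), in lung and in liver. The 4 member probes detected in lung, chosen for this difference, lie at 0.62 to 1.06 there, and the 4 detected in liver lie at -0.14 to -0.07.

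The genome neighbours of the 3 genes were read next. Of the 18 nearest named protein-coding genes with a probe, 3 on each side of each member, 0 passed in lung and 0 in liver by limma. In lung, Vwa7 and Slc6a20b were well above background on 0 of 13 arrays, Igfbpl1 on 1 and Hspa1l on 3, so that their values there are near background. Around D17H6S56E-5, Hspa1a, Hspa1l, Lsm2, Vars, Vwa7 and Sapcd1 differed by -0.08 to 0.14 in lung. Around Xtrp3s1, Limd1, Sacm1l, Slc6a20b, Lztfl1, Ccr9 and Fyco1 differed by -0.08 to 0.04. Around 1300002K09Rik, Shb, Igfbpl1, Tdrd7, Tmod1 and Tstd2 differed by 0.00 to 0.05, and Aldh1b1, a mitochondrial aldehyde dehydrogenase, by 0.31 (limma adjusted p = 0.758). Aldh1b1 was also bright in liver, at a mean of 4.41 in controls against 0.02 in control lungs.

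The closest neighbour start is that of Vars, which encodes valyl-tRNA synthetase and runs on the opposite strand from a point 161 bases from a start of D17H6S56E-5. Its lung difference was 0.14 (limma adjusted p = 0.738). The stretch of 172 bases before that start of D17H6S56E-5, at chr17:35000747-35000918 of GRCm38.p6 on the minus strand and credited to RefSeq, is printed since it holds an exact repeat of 27 bases and reaches from one start to the other, its first 12 bases lying within Vars. Capitals mark both copies of the repeat, which are 8 bases apart, and a match to the core of the interferon-stimulated response element (ISRE) that begins 87 bases before the start.
D17H6S56E-5: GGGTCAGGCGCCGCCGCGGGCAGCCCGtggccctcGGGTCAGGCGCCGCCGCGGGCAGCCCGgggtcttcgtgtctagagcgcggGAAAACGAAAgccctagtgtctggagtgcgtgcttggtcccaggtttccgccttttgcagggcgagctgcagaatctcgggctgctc
Of 32851 mouse promoters in the RefSeq table, 3.44% hold the ISRE core on either strand. Neither promoter listed for 1300002K09Rik nor that of Xtrp3s1 holds it. TGANTCA, which AP-1 factors bind, is in 7.81% of promoters, the NF-kappaB motif in 8.46% and TTCNNNGAA, a STAT motif, in 8.3%, and none of these is in the promoters of the 3 genes. Nor is CCAAT (37.4% of promoters) or CACGTG (7.15%), while TATAAA (13.6%) is in 1 promoter of 1300002K09Rik and GGGCGG (35.7%) in those of 1300002K09Rik and Xtrp3s1. A match is a run of letters and not a shown binding site.

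The genes whose log2 ratios ran most like those of the members over the 13 lungs overlapped between members. This is a description over arrays that include both groups, among 16124 genes well above background on every lung array. For D17H6S56E-5 they were Vnn1, an ectoenzyme that makes cysteamine (r = 0.98), Noxo1, an organiser of NADPH oxidase (r = 0.96), Ly6f, a small surface antigen (r = 0.96), Lcn2, which binds bacterial siderophores (r = 0.95), and Saa3, an acute-phase protein (r = 0.94). For Xtrp3s1 they were Ctsk, a lysosomal protease (r = 0.96), Ly6f (r = 0.96), Lcn2 (r = 0.95), Noxo1 (r = 0.95) and Vnn1 (r = 0.95). For the mean of both 1300002K09Rik probes they were Vnn1 (r = 0.94), Ly6f (r = 0.94), Ccl7, a monocyte chemokine (r = 0.93), Asgr2, a receptor subunit of hepatocytes and some macrophages (r = 0.93), and Zmynd15 (r = 0.92). Vnn1 and Ly6f were among the 5 for each member.

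These likenesses come with the difference between the groups. Over deviations from the group means in the same 13 lungs, the leading genes were different ones for each member. They were TC1419321, Pi4k2a, Rnf126, 2310057M21Rik and Ltbr for D17H6S56E-5 (r = 0.89 to 0.94), Sufu, Cyp17a1, Syn2, AK033329 and AK050242 for 1300002K09Rik (r = 0.85 to 0.87), and Tead4, Phex, 4732474O15Rik, Ankrd56 and Sfrs10 for Xtrp3s1 (r = 0.83 to 0.89). Among the members themselves the deviations of the D17H6S56E-5 probes ran together only loosely in lung (r = 0.31, 13 arrays) and closely in liver (r = 0.90, 15 arrays). Those of the 1300002K09Rik probes had r = 0.62 in liver.

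Over deviations in the 15 livers, among 14818 genes, the genes most like D17H6S56E-5 were Ccna2, 9130213B05Rik, Kif20a, Sparc and Oxct1 (r = 0.90 to 0.91). Ccna2 is a cyclin and Kif20a a kinesin of cytokinesis, and no shared role of the listed genes was tested. These r, like those in lung, are the highest among all genes compared, and no level for such a maximum was computed. The genes most like 1300002K09Rik were Ilkap, Car14, Srgap3, 1110018F16Rik and Tcta (r = 0.90 to 0.92). For Xtrp3s1, whose liver spot was at background, the highest r were 0.73 to 0.78 (Ppl, Atp5j2, Ankrd25, Tomm7 and Fads1), and they describe background signal. All arrays within a tissue share the reference RNA, which enters each of these values.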

How the data were processed

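RNA was measured on Agilent 2-colour arrays. The authors deposited the scanner output of each array, of which the Cy5 and Cy3 median intensity and local background were used, together with the scanner's log10 ratio and their own table of log2 ratios. Per the file headers, signals were extracted with Agilent Feature Extraction 9.5.3.1 (lung) and 10.1.1.1 (liver). The authors' methods state LOWESS normalization and MAANOVA.

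From the intensities, background was corrected by normexp with an offset of 50, with its model fitted on spots not marked as outliers, and each array was normalized by loess (limma 3.58.1, R 4.3.3). Marked spots were left out of that model because, when kept, they drew the modelled Cy5 background mean of single arrays down to -972 from a range of -8.44 to -4.12. Spots of 1 probe were averaged, and probes were kept apart. An offset makes folds of dim probes smaller than the change in RNA. The deposited log2 table correlated with these values at r of 0.993 or more on each array. The number of arrays limits precision.

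Differences were tested in limma over all probes with Benjamini-Hochberg adjustment, and beside it by an exact two-sided permutation test. Each tissue had its own fit. Mouse numbers in the sample titles were taken to mark the same animal in the lung and liver mRNA samples. Some of these numbers carry the other exposure in the miRNA titles, so they do not link animals to those samples. In the 6 control mice with both tissues, deviations of lung and liver correlated at -0.05 to 0.20 within a mouse and -0.16 to 0.13 between mice. These ranges overlap, so the values do not show the pairing. p-values measure the spread between single mice. A set of 200 probes changed by 1 on the log2 scale was tested on simulated data in each comparison. In the liver design of 41109 probes 197 were recovered, with 11 false calls. The noise was normal and independent between probes, and changes smaller than 1 were not simulated. A list gene with several probes was read by the brightest.

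The members and lists were chosen with earlier results of these data known. Named genes were all member probes, the 5 most alike by Pearson r, every list gene that passed or was among the 3 largest lung differences of its list, and the 3 nearest genes on each side. Of 41174 probes, 29610 matched a gene of the RefSeq table by accession or symbol. The miRNA arrays were not used here. Alternatives tried were other background treatments, the scanner's signals, median centering, the authors' table, a filter on dim probes (well above background on 50% of arrays of a group), slide or mouse as a block, and leaving out each array. Leaving out spots with a marked background was added after seeing the data.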

Additional observations from a re-analysis of the deposited data

Results flagged for a closer look

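Among 20 groups of lungs or livers, 5 probes in 4 groups each, 2 held a mouse whose gap to the next was wide for the range of its group, where chance gives about 1 in 20. Exposed mouse 1 had the highest lung value of 1300002K09Rik with probe A_51_P170725, at 0.21, and the next highest exposed lung was at -0.14. Its hepatocyte marker mean of 2.85 was also the highest of the 13 lungs. Exposed mouse 20 had the highest lung value of D17H6S56E-5 with probe A_51_P134468, at -0.43, and the next was at -0.66. With the other D17H6S56E-5 probe, A_52_P416756, mouse 20 was at -1.10, inside the range of its group.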

How the results depend on the processing

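The 4 detected lung differences were positive under every alternative. All alternatives reused the lung arrays that chose the genes by this direction, so the sign is a description. Leaving out single mice moved Xtrp3s1 between 1.02 and 1.12, A_51_P134468 between 0.64 and 0.72, A_52_P416756 between 0.56 and 0.66 and A_51_P170725 between 0.59 and 0.69. With marked spots kept in the background model, Xtrp3s1 fell to 0.49 in lung, the liver differences of 1300002K09Rik turned to 0.34 (A_51_P170725) and 0.77 (A_52_P67678), and the tissue difference of D17H6S56E-5 probe A_52_P416756, 0.52, no longer passed (limma adjusted p = 0.131). With the scanner software's signals, the lung differences were 0.58 for Xtrp3s1 and 1.36 for A_51_P170725. With median centering, the liver differences turned positive, to 0.066 (A_51_P134468), 0.011 (A_52_P416756), 0.029 (A_51_P170725) and 0.027 (A_52_P67678). No liver difference passed under any alternative. The cause of these shifts was not tested. With marked spots kept, the modelled Cy5 background mean fell to -609, -200 and -120 in exposed lungs of mice 23, 12 and 1. The lowest control lung was at -18.7. In control livers it fell to -972, -696 and -68.7 in mice 24, 26 and 27, and the lowest exposed liver was at -13.5. With slide as a fixed block, 1 gene of the MHC class III list, Cfb, passed in lung, against 0 without it. With the mouse number as a replicate block over the 6 control mice with both tissues, the tissue differences were 1.16 and 0.98 for D17H6S56E-5, -6.71 and -3.83 for 1300002K09Rik and 1.05 for Xtrp3s1, and no call changed. Every other list count and tissue call kept its side of the threshold under the alternatives run. Signal over background limits Xtrp3s1 in liver and A_52_P67678 in lung, where no difference between exposed and control can be read, and makes the lung folds of the dim probes depend on the background treatment.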
